A study of Zea mays with 18 samples.

Results

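The comparison is between 2 maize (Zea mays) lines in which the phytoglobin gene ZmPgb1.1 was altered in opposite directions, one down-regulated (line A) and one overexpressing (line S), before any oxygen shortage. Its members are 6 of the 18 libraries of the study, taken by their labels: 3 of line A at 0 h (A_0h) and 3 of line S at 0 h (S_0h), all labelled normoxic. The RNA was total RNA from the quiescent centre of the root tip, freed from the root cap and the tissue behind it, in seedlings 5 days old. The other 12 libraries are wild type (WT) at 0 h and all 3 genotypes after 12 h of hypoxia, with 3 libraries in each of the 6 groups. They entered the fit and help to estimate the spread. Each alteration is represented by 1 line. The promoter of each construct, the background of the lines and whether 0 h roots had been submerged in aerated medium cannot be told from the labels. Nothing in the labels shows that the 3 libraries of a line are separate collections of roots. The p-values below therefore cover the scatter among libraries. Between libraries that are alike, that scatter may be no more than technical. It also takes in libraries unlike others of their label, as described below.

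Phytoglobins are plant hemoglobins that bind oxygen very tightly and help to turn nitric oxide into nitrate, which keeps this signalling gas low in cells short of oxygen. The quiescent centre is a small group of rarely dividing cells that keeps the stem cells around it undifferentiated, and it lies in a poorly oxygenated and oxidised part of the root tip. Lines with more or less phytoglobin ask how far this scavenging shapes gene expression in these cells while oxygen is still supplied.

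The unit of measurement was the read count per gene ID. The 6 libraries held 57052158 to 86614428 counts and 21504 to 22265 IDs with at least 1 count. Levels are in CPM, counts per 1000000 counts of a library after scaling, a scale that does not correct for gene length and compares libraries, not genes. A level of 3 counts, read here as off, was 0.0354 to 0.0528 CPM in these libraries, a limit that covers counting error only. None of the IDs could be paired with a gene name, so the level of ZmPgb1.1, the markers of the quiescent centre and of other root cells, and every pathway list were not checked. IDs are given without names or functions.

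The labels and the likeness of the libraries disagreed in both groups, which bears on every result that follows. A_0h replicates 1 and 2 were close to each other, with a Spearman correlation of 0.997 over log2 CPM, and both were at 0.950 or less with A_0h replicate 3 (0.9497 and 0.9495). That is below the lowest correlation between any A_0h and any S_0h library, which was 0.956, the highest being 0.980. S_0h replicates 1 and 2 correlated at 0.997 with each other and at 0.988 and 0.991 with S_0h replicate 3. The nearest library of A_0h replicate 3 was A_12h replicate 2, and that of S_0h replicate 3 was WT_0h replicate 1, both at 0.998. A_0h replicates 1 and 2 also had S_12h replicate 3 beside them at 0.997, and S_0h replicates 1 and 2 had WT_12h replicate 3 at 0.998 and 0.997. Whether A_0h replicate 3, S_0h replicate 3 or their partners carry a wrong label cannot be told from these data. Leaving out replicate 3 therefore does not show that the labels of replicates 1 and 2 are right. A group below means the libraries that bear its label. The comparison is therefore given with all 3 libraries of a line and without replicate 3 of both.

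The same disagreement shows in single genes. Over 17346 IDs with a mean of at least 1 CPM in the 6 libraries, A_0h replicates 1 and 2 differed 2-fold or more in 58 IDs (0.334%) and S_0h replicates 1 and 2 in 123 (0.709%). A_0h replicate 3 differed 2-fold or more from the mean of A_0h replicates 1 and 2 in 2604 IDs (15.0%), more than the 2240 IDs (12.9%) that separated replicates 1 and 2 of A_0h from replicates 1 and 2 of S_0h. S_0h replicate 3 differed from its 2 partners in 631 IDs (3.64%). By this count the spread inside line A was no narrower than the distance between the lines.

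With all 3 libraries a side, 382 of 20945 IDs tested differed between the lines in air, 1.82% of them, by edgeR's quasi-likelihood test at an adjusted p under 0.05. Of these, 187 (0.893%) were higher and 195 (0.931%) lower in line A, and the 3 libraries of one line lay wholly above or below those of the other in all 382. That separation is no separate support, since the IDs were picked for a small p in these same libraries. Over all IDs tested, the lines did not overlap in 25.8%, with line A above in 12.8% and below in 12.9%. The higher and lower calls differed in size. The median log2 fold change was 1.08 among the higher IDs (a 2.11-fold difference) and -0.50 among the lower ones (1.42-fold), and 100 of the higher but only 25 of the lower IDs reached 2-fold. The median log2 fold change of all IDs tested was 0.02.

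The count rested on single libraries. It was 109, 47 or 117 without S_0h replicate 1, 2 or 3, 86 or 63 without A_0h replicate 1 or 2, and 3138 without A_0h replicate 3. A fit to the 6 libraries alone called 50, and DESeq2 called 2047, of which 1194 were higher in line A. Without S_0h replicate 3 the calls were 71 higher and 46 lower, and without A_0h replicate 1 or 2 they were 59 higher and 27 lower or 45 higher and 18 lower.

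The smallest adjusted p of all IDs tested belonged to Zm00001d028998.RefGen_V4, an abundant transcript that is given here after its values were seen. It measured 1736, 1654 and 1801 CPM in A_0h replicates 1, 2 and 3 and 830.0, 808.7 and 880.3 CPM in the S_0h replicates. Both lines were tight, A_0h replicate 3 lay with its partners, and the lines were apart by more than their own spread. The means were 1730 ± 73.5 CPM in line A and 839.7 ± 36.7 CPM in line S (SD, n = 3), a 2.06-fold ratio, and edgeR gave a log2 fold change of 1.04 (SE 0.07, adjusted p = 1.22e-05). WT at 0 h stood at the level of line S, with 867.7, 811.6 and 878.7 CPM. Among the libraries outside the comparison, it measured 1884 to 1979 CPM in A_12h and 804.6 to 878.7 CPM over all WT libraries. In S_12h it was at 1962, 2048 and 1706 CPM. Its call held in every alternative run, with adjusted p from 9.28e-16 to 0.0239 by edgeR.

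By the rule for named genes, the 2 IDs with the largest log2 change each way among called IDs with a group mean of at least 10 CPM are given next. In A_0h, Zm00001d036331.RefGen_V4 measured 22.2 and 21.9 CPM in replicates 1 and 2 but 0.257 CPM in replicate 3, against 0.0850, 0.138 and 0.0945 CPM in S_0h. Replicate 3 of line A exceeded the S_0h libraries by a margin that was small beside its distance to its own partners. The log2 fold change was 7.10 (SE 1.71, adjusted p = 0.04998 by edgeR), and the call was lost without any one of the libraries except A_0h replicate 3 (adjusted p from 0.134 to 0.194). Without replicate 3 of both lines the log2 fold change was 7.60 (adjusted p = 0.0245).

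In the A_0h replicates, Zm00001d036761.RefGen_V4 measured 22.5, 24.6 and 3.66 CPM, and in S_0h 0.283, 0.201 and 0.0945 CPM. Here all 3 libraries of line A stood more than 10-fold above every library of line S, at 2 clearly different heights. The ratio of means was 87.8-fold, from 16.9 ± 11.5 to 0.193 ± 0.0947 CPM (SD, n = 3), and the log2 fold change was 6.46 (SE 0.87, adjusted p = 0.00324 by edgeR). The call was kept when any 1 library was left out, and it was lost by limma-voom (adjusted p = 0.123) and with only the 6 libraries in the fit (adjusted p = 0.0641). Without replicate 3 of both lines the log2 fold change was 6.60 (adjusted p = 0.00374).

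Zm00001d018404.RefGen_V4 was lower in line A, at 3.15, 3.82 and 8.42 CPM against 16.4, 17.2 and 11.0 CPM in S_0h. Replicate 3 of each line lay towards the other line, and the gap between the lines was the step from 8.42 to 11.0 CPM. The means differed 2.90-fold, with a log2 fold change of -1.53 (SE 0.34, adjusted p = 0.0367 by edgeR), and the call was lost without any one library except A_0h replicate 3 (adjusted p from 0.0574 to 0.16). Without replicate 3 of both lines the log2 fold change was -2.27 (adjusted p = 0.00415).

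Zm00001d019620.RefGen_V4 was at 5.48, 4.95 and 4.22 CPM in A_0h and at 11.4, 13.4 and 15.8 CPM in S_0h. All 3 libraries of line A agreed for this ID, and the means differed 2.77-fold, with a log2 fold change of -1.47 (SE 0.29, adjusted p = 0.0196 by edgeR). Its call ended without S_0h replicate 2 or 3 or A_0h replicate 1 or 2 (adjusted p from 0.0725 to 0.0878). Without replicate 3 of both lines the log2 fold change was -1.24 (adjusted p = 0.0468).

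**Figure D1:**
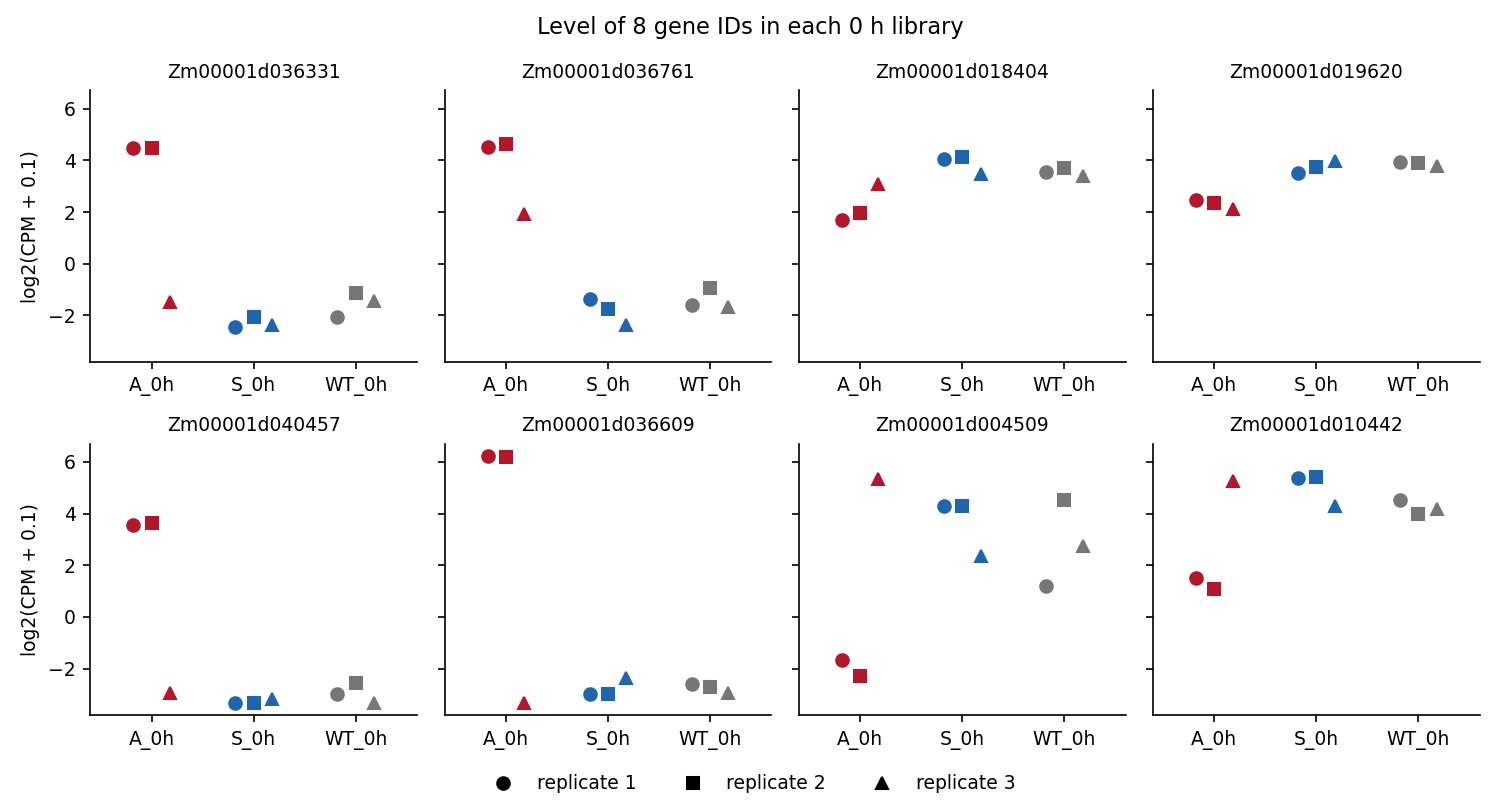
Levels of 8 gene IDs in the A_0h, S_0h and WT_0h libraries on the scale log2(CPM + 0.1), 1 symbol per library and 1 shape per replicate number. The upper row holds the IDs taken from all 3 libraries a side, where A_0h replicate 3 lies on the side of its group. In Zm00001d036331.RefGen_V4 it does so only narrowly, close to the S_0h libraries and within the range of WT_0h. The lower row holds those taken without replicate 3 of both lines, where A_0h replicate 3 lies with or beyond the S_0h libraries.

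With all 3 libraries a side, the direction of the calls changed with the level of the transcript. Among the 2213 IDs with a mean of at least 100 CPM over the 6 libraries, 4 were called higher and 53 lower in line A. Among the 9904 IDs between 10 and 100 CPM, 102 were higher and 111 lower, and among the 5229 IDs between 1 and 10 CPM, 70 were higher and 28 lower. The median fold of the higher calls was 3.60 between 1 and 10 CPM and 1.60 between 10 and 100 CPM. That of the 53 abundant IDs that were lower was 1.29. The median log2 fold change of all 2213 abundant IDs was -0.04, close to the 0.02 of all IDs. Scaling by RLE gave the same 4 and 53, limma-voom 4 and 56 and DESeq2 34 and 172. Leaving out any library other than A_0h replicate 3 reduced the counts to 1 to 3 higher and 4 to 13 lower, and leaving out A_0h replicate 3 raised them to 66 and 201. Without replicate 3 of both lines the reversal with level was lost, since lower calls were in the majority in each of these bands: 43 higher and 149 lower at 100 CPM or more, 423 and 670 between 10 and 100 CPM, and 293 and 356 between 1 and 10 CPM.

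The 4 abundant IDs called higher were Zm00001d028998.RefGen_V4, described above, and 3 others that are also given after their values were seen. Zm00001d044874.RefGen_V4 was at 304.0, 299.3 and 76.6 CPM in A_0h and at 16.3, 4.59 and 4.97 CPM in S_0h (log2 fold change 4.72, adjusted p = 0.00856 by edgeR). Zm00001d015956.RefGen_V4 was at 142.8, 147.6 and 99.6 CPM against 81.8, 85.8 and 81.3 CPM (log2 fold change 0.65, adjusted p = 0.0290 by edgeR). Zm00001d028579.RefGen_V4 was at 239.5, 242.8 and 231.6 CPM against 203.8, 188.9 and 184.8 CPM (log2 fold change 0.31, adjusted p = 0.0334 by edgeR). A_0h replicate 3 was the lowest of its group by a wide step in Zm00001d044874.RefGen_V4 and Zm00001d015956.RefGen_V4, whereas the 3 libraries of line A were alike in Zm00001d028579.RefGen_V4. Without replicate 3 of both lines the adjusted p of the 3 IDs was 0.00888, 0.00884 and 0.0440, in the order given.

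**Figure D2:**
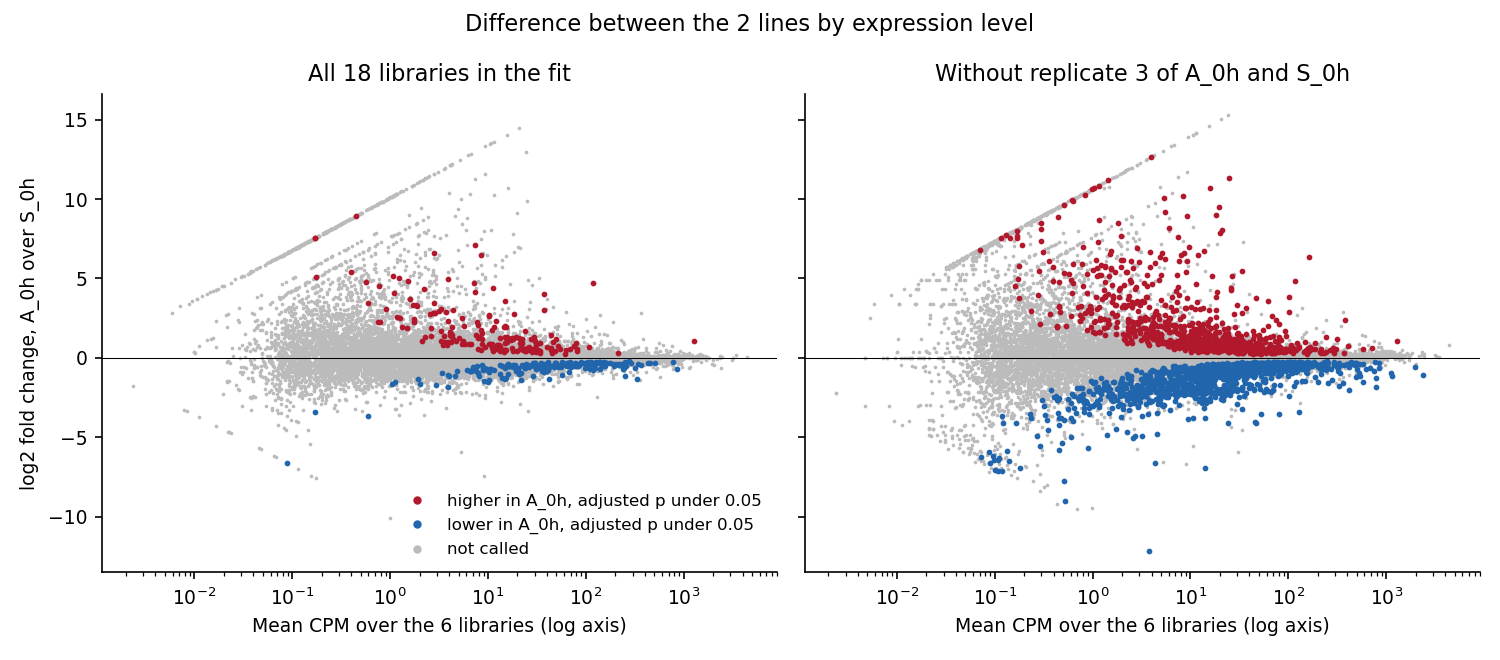
Log2 fold change of A_0h over S_0h against the mean CPM over the 6 libraries (log axis), for every ID tested, with called IDs coloured by direction, from the fit to all 18 libraries (left) and without replicate 3 of both lines (right). On the left the 53 lower calls at 100 CPM or more form a band just below 0, and on the right there are 822 higher and 1247 lower calls.

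Without A_0h replicate 3 and S_0h replicate 3, 2069 of 21269 IDs were called by edgeR, 9.73%, of which 822 (3.86%) were higher and 1247 (5.86%) lower in line A. The lower calls were now larger, with a median log2 fold change of -0.98 against 1.21 for the higher ones, and 478 higher and 615 lower IDs reached 2-fold. Of the 382 IDs called with all libraries, 335 were among these in the same direction, which is 87.7% of the first list and 16.2% of the second. Since the 2 fits share libraries, that overlap is no separate support. Dropping the odd library of each line also shrinks the scatter by the very choice, so these counts describe the 4 libraries kept.

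The other groups in this fit carried more scatter than the 4 libraries kept. The common biological coefficient of variation, edgeR's measure of the scatter between libraries of a group, was 35.2% with all 18 libraries, 31.7% without the 2, and 7.00% when the fit held only replicates 1 and 2 of A_0h and S_0h. On those 4 libraries 11242 of 20076 IDs (56.0%) were called, 5855 (29.2%) higher and 5387 (26.8%) lower. Without the 6 libraries of the series that have 2 nearest neighbours from groups other than their own, 11426 of 21030 (54.3%) were called, 5877 higher and 5549 lower. In the fit without the 2, limma-voom called 3109 IDs with the larger part higher in line A (1851 against 1258), so which direction held more IDs depended on the tool. With 1 library of the 4 left out as well, and the lone library assumed to vary like the other groups, 8 to 54 IDs were called. The count was 54 without S_0h replicate 1, 23 without S_0h replicate 2, 28 without A_0h replicate 1 and 8 without A_0h replicate 2.

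The IDs with the largest changes in this fit were picked by the same rule, and the call of each ended on dropping a further library, whichever of the 4 it was. Zm00001d040457.RefGen_V4 measured 11.6 and 12.3 CPM in A_0h replicates 1 and 2 and had 0 counts in S_0h replicates 1 and 2, so it was at least 281-fold higher against the floor of 3 counts in a library (adjusted p = 0.0358 by edgeR). It was at 0.0286 CPM in A_0h replicate 3 and 0.0118 CPM in S_0h replicate 3, both off.

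In A_0h replicates 1 and 2, Zm00001d036609.RefGen_V4 measured 74.7 and 73.5 CPM, while S_0h replicates 1 and 2 held 4 counts of it together (adjusted p = 0.0413 by edgeR). It had 0 counts in A_0h replicate 3 and 0.0945 CPM in S_0h replicate 3. For both IDs the library left out of line A was on the side of line S.

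Zm00001d004509.RefGen_V4 was lower in line A in this fit, with 0.211 and 0.105 CPM in its A_0h libraries against 19.6 CPM in both S_0h libraries, 124-fold less (log2 fold change -6.94, SE 1.71, adjusted p = 0.0284 by edgeR, 0.28 by limma-voom). A_0h replicate 3 ran the other way, at 40.3 CPM the highest of the 6, and S_0h replicate 3 was at 4.98 CPM. With all libraries its log2 fold change was -0.12 (adjusted p = 0.977).

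Zm00001d010442.RefGen_V4 measured 2.76 and 2.04 CPM in those A_0h libraries against 41.3 and 42.2 CPM in S_0h, 17.4-fold less, with a log2 fold change of -4.11 (SE 0.95, adjusted p = 0.0225 by edgeR, 0.131 by limma-voom). A_0h replicate 3 held 38.7 CPM of it and S_0h replicate 3 held 19.6 CPM. With all libraries its log2 fold change was -1.24 (adjusted p = 0.499).

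The libraries left out allow the difference to be read a second time, in libraries that the fit did not hold. That fit did hold their nearest libraries, A_12h replicate 2 and WT_0h replicate 1 (both at 0.998), which helped to set its spread. The choice of IDs was therefore not independent of the libraries left out, and how far this moved the shares below was not tested. Of the 822 IDs higher in line A by replicates 1 and 2, 505 (61.4%) were higher in A_0h replicate 3 than in S_0h replicate 3, and of the 1247 lower ones 760 (60.9%) were lower. Over all 21269 IDs tested these shares were 50.0% and 48.1%. The size did not carry over. The median difference between A_0h replicate 3 and S_0h replicate 3 was 0.11 on the log2 scale among the higher IDs and -0.08 among the lower ones, where the fit gave 1.21 and -0.98.

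For the larger set called on replicates 1 and 2 alone, the libraries left out did not share the direction. Of the 5855 higher IDs 43.3% were higher and 51.5% lower in A_0h replicate 3 than in S_0h replicate 3, the rest being equal. Of the 5387 lower IDs 45.9% were lower and 54.1% higher. Over all 20076 IDs tested 49.9% were higher and 48.6% lower. Across the 17346 IDs with a mean of at least 1 CPM, the difference in replicates 1 and 2 and that in replicate 3 had a Pearson correlation of 0.015 on the log2(CPM + 0.1) scale. With a pseudocount of 0.5 or 1 CPM it was -0.0036 or -0.013. IDs of 1 library share its depth and preparation and are not independent replicates. A total of 1330 IDs (7.67%) differed 2-fold or more between the replicates numbered 3, 914 higher and 416 lower in line A.

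**Figure D3:**
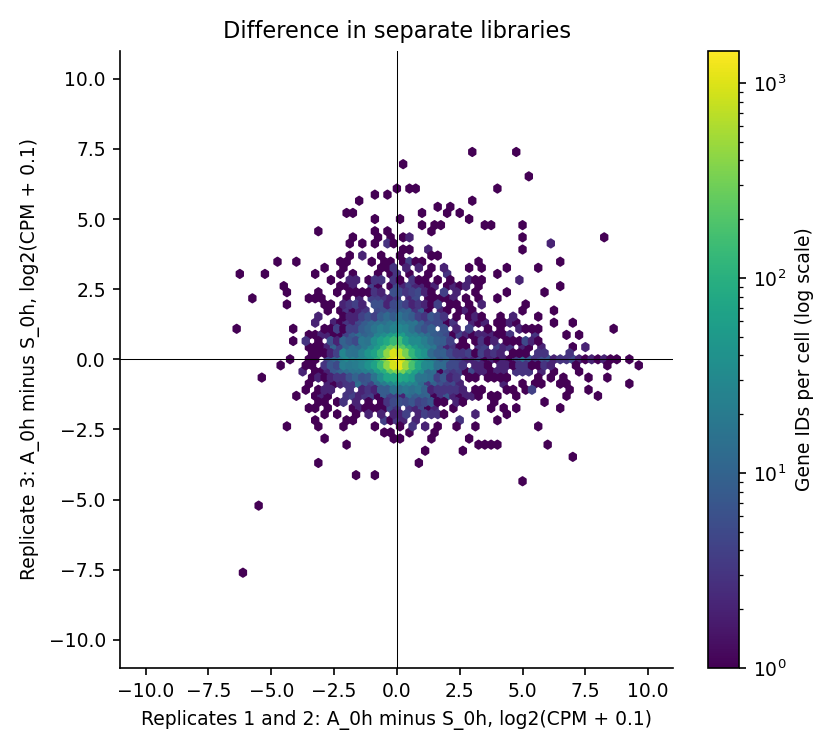
Difference between line A and line S at 0 h in replicates 1 and 2 (horizontal, means of 2 libraries) and in replicate 3 (vertical), on the scale log2(CPM + 0.1), for 17346 IDs with a mean of at least 1 CPM, with colour for the number of IDs on a log scale. The cloud has no slope, and an arm of IDs far to the right lies at a vertical difference of 0.

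Among the 382 IDs called with all libraries, A_0h replicate 3 was mostly a weaker version of its partners. This is a description only, since the fit that picked these IDs held A_0h replicate 3. It lay between the S_0h mean and the mean of A_0h replicates 1 and 2 in 118 of the 187 higher IDs and 146 of the 195 lower IDs, and at or beyond its partners in the remaining 69 and 49. The median distance from the S_0h mean was 1.14 for A_0h replicates 1 and 2 and 0.84 for replicate 3 among the higher IDs, on the log2(CPM + 0.1) scale. Among the lower IDs it was -0.56 and -0.41.

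One group of transcripts was present in A_0h replicates 1 and 2 and off in S_0h replicates 1 and 2. It did not follow the line in the other libraries, as the next paragraph shows. In A_0h replicates 1 and 2, 189 IDs (0.658% of all 28724) were at 1 CPM or more while both S_0h replicates 1 and 2 held at most 3 counts, and 121 of them had 0 counts in both. The reverse held for 4 IDs (0.0139%). The A_0h libraries were the shallower ones, with 57052158 and 57558291 counts against 69956946 and 79974692. Whether depth bears on this contrast was not tested. Of the 189, 29 were at 10 CPM or more in both A_0h libraries. The contrast was 121 against 3 IDs when 0 counts were asked for, 299 against 17 when up to 10 counts were allowed, and 53 against 1 when the line that was on had to reach 5 CPM.

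Replicate 3 of line A did not share these 189 IDs. Of the 14 libraries that had not been used to pick them, S_12h replicate 3 held 180 at 1 CPM or more, and each of the other 13, A_0h replicate 3 included, held between 0 and 5. A_0h replicate 3 had at most 3 counts of 160 of them. In the 3 WT_0h libraries, 137 were off throughout.

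With all 3 libraries a side the presence and absence calls shrank to 2 IDs on in line A (0.00696%) and 1 on in line S (0.00348%), all of them given after their values were seen. Zm00001d027254.RefGen_V4 was at 31.2, 30.9 and 2.10 CPM in A_0h and Zm00001d041498.RefGen_V4 at 2.82, 3.17 and 1.82 CPM, and both had 0 counts in every S_0h library. WT_0h replicate 2 held 2.26 and 6.25 CPM of them and the other two WT_0h libraries 0 to 0.0256 CPM. Zm00001d018713.RefGen_V4 had 0 counts in every A_0h library and 1.01, 1.63 and 3.33 CPM in S_0h. None of the 3 passed the test (adjusted p = 0.127, 0.171 and 0.156 by edgeR).

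The last of these is also 1 of the 4 IDs that were on in S_0h replicates 1 and 2 and off in A_0h replicates 1 and 2. The remaining ones were Zm00001d020958.RefGen_V4, at 10.4 and 6.41 CPM in those S_0h libraries, Zm00001d002038.RefGen_V4, at 1.70 and 1.25 CPM, and Zm00001d051251.RefGen_V4, at 1.26 and 1.42 CPM. A_0h replicate 3 expressed all 3 of these, at 4.09, 1.69 and 1.20 CPM.

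For the IDs called between the lines, WT at 0 h stood closer to line S than to line A. This is a description only, since these IDs were picked for differing between the lines in a fit whose spread included the WT libraries. The position of WT over all IDs tested was not counted. The WT_0h mean was nearer to the S_0h than to the A_0h mean in all 187 higher IDs and 194 of the 195 lower IDs. Its median distance from S_0h was 0.055 and 0.0057 on the log2(CPM + 0.1) scale. The exception was Zm00001d016837.RefGen_V4, at 14.5, 16.4 and 17.0 CPM in A_0h, 23.5, 20.5 and 21.4 CPM in S_0h and 18.4, 18.1 and 18.3 CPM in WT_0h. In the fit to all libraries, line A against WT at 0 h gave 696 called IDs (3.32%), and line S against WT gave 0 by edgeR with 355 at an unadjusted p under 0.05, 0 by limma-voom and 9 by DESeq2. Without A_0h replicate 3 and S_0h replicate 3 these were 2804 (13.2%) for line A, and for line S 0 by edgeR with 1419 at an unadjusted p under 0.05, 0 by limma-voom and 128 by DESeq2. The 2 comparisons share the WT_0h libraries, and the difference between them is the direct comparison of the lines. WT_0h replicate 2 was itself nearest to WT_12h replicates 2 and 1, and line S against WT was not tested without it. The 355 were of 20945 IDs tested and the 1419 of 21269. A count of 0 therefore does not show that line S equals WT.

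The WT levels of the 4 IDs of the rule taken with all libraries were as follows, with each line set against WT in the same edgeR fit. Zm00001d036761.RefGen_V4 was at 0.230, 0.425 and 0.217 CPM in WT_0h, with a log2 fold change of 5.85 for line A against WT (adjusted p = 0.00365) and -0.60 for line S against WT (adjusted p = 1). Zm00001d019620.RefGen_V4 was at 15.2, 14.6 and 13.8 CPM in WT_0h, with -1.57 (adjusted p = 0.0104) and -0.11 (adjusted p = 1). Zm00001d018404.RefGen_V4 was at 11.6, 12.9 and 10.5 CPM, with -1.18 (adjusted p = 0.0683) and 0.35 (adjusted p = 1). Zm00001d036331.RefGen_V4 was at 0.141, 0.356 and 0.263 CPM, above every S_0h library and with A_0h replicate 3 inside its range, with 5.86 (adjusted p = 0.0585) and -1.24 (adjusted p = 1).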

How the data were processed

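Total RNA of maize quiescent centres was sequenced in 18 libraries, grouped and numbered by their titles, which the columns of the table match. The authors deposited whole-number read counts per gene, not normalised, for 28724 IDs. HISAT2, featureCounts and the B73 RefGen_v4 build are named in the submitters' processing notes, without versions. Strand setting and the handling of multi-mapping reads were not given in the sources used here, so near-identical copies, overlapping genes and antisense genes are uncertain. Of the IDs, 0 matched the RefSeq gene table at hand, which is of another assembly, so 32 gene lists could not be used.

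IDs were filtered by filterByExpr (20945 kept), scaled by TMM and tested with edgeR 4.0.16 in R 4.3.3 (quasi-likelihood, robust, 1 mean per group, all 18 libraries), with Benjamini-Hochberg adjustment over all IDs tested. The standard error of a log2 fold change is its size over the root of F. The fits were tested on simulated data. Alternatives used DESeq2 1.42.0, limma-voom (limma 3.58.1), RLE scaling, 2 filters, a replicate block, only the groups compared, and libraries left out. No 2 of the 6 libraries agreed within sampling noise (chi-square per ID at least 4.61, about 1 for repeat counts). The rule for named genes took, per fit, the 2 largest log2 changes each way among called IDs that did not overlap and reached a mean of 10 CPM in a group. Libraries, lists and rule were chosen with earlier results of these data known.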

Additional observations from a re-analysis of the deposited data

How the results depend on the processing

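The count of IDs called between A_0h and S_0h, 382 with all libraries, moved to 2047 by DESeq2, 50 with only the 2 groups compared, 135 with the replicate block, 2069 without A_0h replicate 3 and S_0h replicate 3, and 11426 without the 6 libraries that have 2 nearest neighbours from groups other than their own. It ranged from 47 to 3138 when 1 library was left out, and from 296 to 397 under limma-voom, RLE scaling and the 2 other filters. The count without replicate 3 of both lines, 2069, moved to 3873 by DESeq2, 3109 by limma-voom, 11242 with only the 2 groups compared and 11426 without the 6 libraries, and ranged from 8 to 54 when 1 more library was left out. It was 1734 with the replicate block. The share of calls higher in line A, 49.0% and 39.7% in the 2 fits, was 58.3% by DESeq2 in the first and 59.5% by limma-voom in the second. The cause of these shifts was not tested.

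No pairing of the libraries by replicate number was seen. Deviations from the group mean in same-numbered libraries of the 2 lines correlated at -0.07, -0.06 and -0.12. Of the 3 A_0h libraries, 0 correlated best with its own number. Replicate 3 lay apart in both groups and sets most of these values, so they say little about replicates 1 and 2. The difference between replicates 1 and 2 correlated at 0.015 between the lines. None of the IDs taken by the rule, nor Zm00001d028998.RefGen_V4, changed direction in an alternative; the other IDs given were not run through them. Of the IDs taken with all libraries, limma-voom ended the calls of Zm00001d036331.RefGen_V4 (adjusted p = 0.428; DESeq2 gave none) and Zm00001d036761.RefGen_V4 (0.123). A fit to only the 2 groups ended all 4 (0.053 to 0.142). The block, by numbers for which no pairing was seen, ended those of Zm00001d036331.RefGen_V4 (0.103), Zm00001d018404.RefGen_V4 (0.0905) and Zm00001d019620.RefGen_V4 (0.0522). Testing with no low-count filter ended the first of these as well (Zm00001d036331.RefGen_V4, 0.0655). The stricter low-count filter gave no result for that ID. Of those taken without replicate 3 of both lines, no low-count filter ended that of Zm00001d036609.RefGen_V4 (0.058), and leaving out 1 more library ended all 4 (0.0922 to 0.231). In the fit without replicate 3 of both lines, DESeq2 gave no adjusted p for Zm00001d040457.RefGen_V4 and Zm00001d036609.RefGen_V4. Read depth limits IDs near the floor of 3 counts.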
